A study of Mus musculus with 6 samples.

Results

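The transcripts of the mouse mitochondrial genome were followed in cultured pancreatic islets after a day of prolactin. The members were all genes whose symbol starts with mt- in the deposited count tables, 37 of 48397 genes, ordered by position along the mitochondrial chromosome. They are 13 protein genes (12 on the plus strand and mt-Nd6 on the minus strand), 2 rRNA genes on the plus strand, and 22 tRNA genes, 14 of them on the plus and 8 on the minus strand. Islets of wild-type C57B6 mice, labelled as mixed cells, recovered overnight and were then cultured for 24 h with 500 ng/mL of recombinant mouse prolactin (3 libraries) or with DMSO, the solvent control (3 libraries). Polyadenylated RNA was sequenced. Reads assigned to genes numbered 230833584 to 264885071 in the prolactin libraries and 264466143 to 530296257 in the control libraries. Nothing in the labels tells whether the replicates are separate mice or cultures. The p-values therefore reflect only how far these 6 samples spread, and that spread may be technical.

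The mitochondrial genome is transcribed by its own polymerase, Polrmt, as long transcripts of each strand, which are cut apart mainly at the tRNAs that lie between the other genes. Its protein genes encode core subunits of respiratory complexes I, III and IV and of ATP synthase (complex V), while the other subunits, the ribosomal proteins and all factors for its expression come from the nucleus. In beta cells, respiration of glucose-derived fuel raises ATP, which closes potassium channels and leads to insulin release. Pieces of the mitochondrial genome have also been copied into the nuclear chromosomes during evolution, where they are annotated as pseudogenes.

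The sequences below are shown because the protein genes with the largest changes lie in a stretch that has such a nuclear copy. The copy runs along chromosome 1 from 24611535 to 24616197 on the minus strand (mm10), and its annotated pieces match positions 6381 to 11042 of the mitochondrial chromosome, 4662 nucleotides, in the same order. It holds 7 annotated pseudogenes, and 6 protein genes lie wholly inside the copied stretch. The first 120 bases of mt-Co2 (chrM:7013-7132, plus strand), which encodes subunit II of cytochrome c oxidase, are followed by those of its copy Gm28661 (chr1:24615446-24615565, minus strand) and of an older copy, Gm13341 (chr2:22587843-22587962, minus strand). Capitals mark bases that differ from mt-Co2.
mt-Co2: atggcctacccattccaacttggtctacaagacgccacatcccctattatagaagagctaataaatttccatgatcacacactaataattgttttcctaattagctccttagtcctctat
Gm28661: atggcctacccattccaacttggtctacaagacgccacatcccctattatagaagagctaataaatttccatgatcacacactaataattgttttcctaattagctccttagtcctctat
Gm13341: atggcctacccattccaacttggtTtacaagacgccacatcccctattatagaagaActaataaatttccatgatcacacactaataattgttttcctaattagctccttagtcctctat

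Over its whole annotated length of 681 bases Gm28661 had 0 differences from mt-Co2, while Gm13341 was 95.9% identical. The copies of mt-Atp6 (Gm10925, 678 bases), mt-Co3 (Gm28437, 783 bases), mt-Nd4l (Gm10222, 294 bases) and of part of mt-Nd4 (Gm28439, 876 bases) were likewise without a difference. The copy of mt-Nd3, Gm28438, differed at 1 base over 345, T3C counted from the first base of the gene. The first 60 bases of this pair (chrM:9459-9518, plus strand, and chr1:24613060-24613119, minus strand) show it in capitals.
mt-Nd3: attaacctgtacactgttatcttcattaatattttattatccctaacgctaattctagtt
Gm28438: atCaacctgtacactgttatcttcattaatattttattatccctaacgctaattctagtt

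Reads from such stretches fit both places equally well. Of all windows of 100 bases in mt-Co2, 99.5% occur unchanged in another annotated transcript, and the share was 99.9% in mt-Co3, 99.5% in mt-Atp6, 98.5% in mt-Nd4l and 97.6% in mt-Nd3. It was 60.8% in mt-Nd4, 30.8% in mt-Co1, 3.19% in mt-Nd2 and 0% in mt-Nd1, mt-Nd5, mt-Nd6, mt-Cytb and both rRNA genes. mt-Atp8 also gave 0%, since no annotated transcript covers it whole, although it lies inside the copied stretch. The counting command has no option for reads that fit several places.

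The 3' ends are shown because the libraries were made from polyadenylated RNA, and the tail completes some reading frames. In mt-Co3, mt-Nd4 and mt-Cytb, the annotated gene ends with a lone base after the last whole codon, and the stop codon is known to be completed by the adenines added to the RNA. The other 10 protein genes end in a whole stop codon. The last 24 bases of mt-Co3 (chrM:9367-9390), mt-Nd4 (chrM:11521-11544) and mt-Cytb (chrM:15265-15288) are set beside those of mt-Co1 (chrM:6849-6872) and mt-Co2 (chrM:7673-7696), all on the plus strand, with the lone base or the stop codon in capitals.
mt-Co3: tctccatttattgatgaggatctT
mt-Nd4: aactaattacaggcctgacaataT
mt-Cytb: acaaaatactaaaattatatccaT
mt-Co1: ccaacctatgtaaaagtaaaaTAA
mt-Co2: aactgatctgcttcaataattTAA

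Mitochondrial transcripts made up a similar part of the counts in all 6 libraries. They took 2.47%, 2.45% and 2.59% of the gene-assigned counts in prolactin replicates 1, 2 and 3, against 2.96%, 3.05% and 2.57% in control replicates 1, 2 and 3. The means were 2.50% ± 0.08 in prolactin and 2.86% ± 0.26 in control (SD, n = 3 each), a difference of -0.354 percentage points. The groups overlapped: control replicate 3 lay among the prolactin libraries, and control replicates 1 and 2 lay above them. Protein genes took 2.35% ± 0.07 of the counts in prolactin and 2.72% ± 0.26 in control, and rRNA genes 0.152% ± 0.012 in prolactin and 0.136% ± 0.019 in control. The Wilson 95% interval of a library's share was at most 0.00201 percentage points to either side, which covers counting error only. In bulk RNA, fewer cells rich in mitochondrial transcripts and less of them per cell cannot be told apart.

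**Figure D1:**
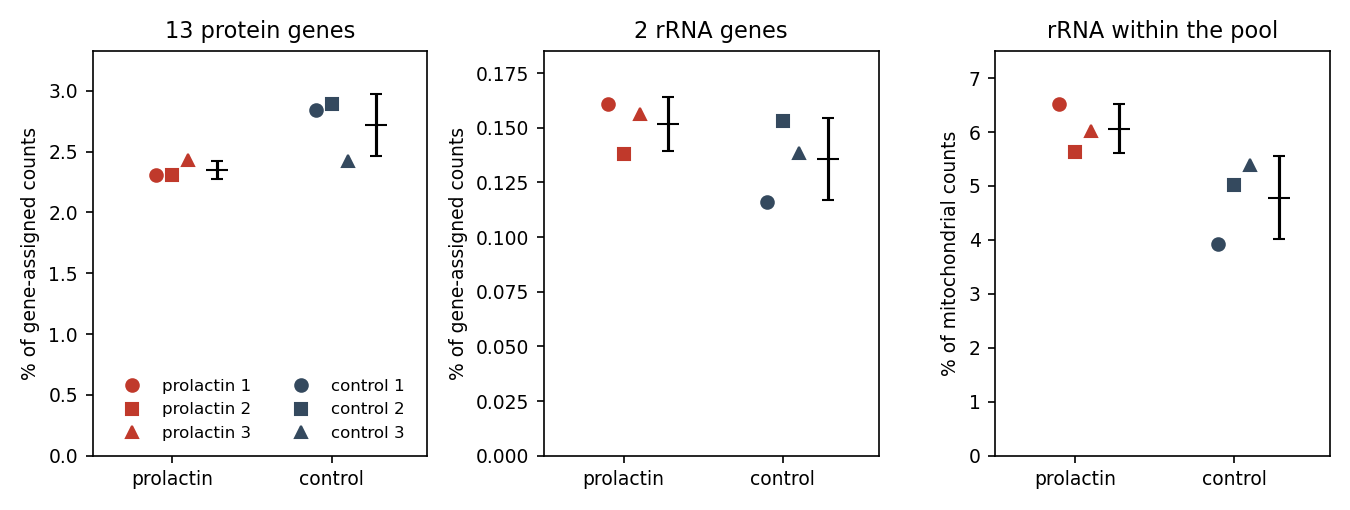
Share of counts per library (y axes, in percent, from 0) for the 13 protein genes, the 2 rRNA genes, and the rRNA genes within all mitochondrial counts; points are libraries, bars mean ± SD of 3. Control replicate 3 lies with the prolactin libraries for the protein genes, and in the panel on the right the prolactin libraries (5.63% to 6.53%) lie above the control libraries (3.92% to 5.40%).

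Control replicate 3, which had the lowest mitochondrial share of its group, stood apart in other transcripts as well. The summed level of 24 acinar markers ranged from 1072 to 2305 CPM in prolactin and from 644.0 to 3546 CPM in control (CPM are counts scaled to a common library total), highest in control replicate 3 and lowest in control replicate 2. Of these 24, 23 had changes below 0, against 49.9% of all genes tested. edgeR called 0 of them, and DESeq2 called 1, which was higher. The 6 nuclear-retained long RNAs summed to 2366 to 2516 CPM in prolactin and 2016 to 3552 CPM in control, again highest in control replicate 3 and lowest in control replicate 2, which had the highest mitochondrial share. Control replicate 3 was also lowest in the 20 stromal markers, which summed to 1346 to 1629 CPM in prolactin and 748.0 to 1112 CPM in control. All 20 had changes above 0; edgeR called 2 higher and DESeq2 8, where 0.652% and 4.1% of all genes tested were called higher. The 17 endothelial markers summed to 547.5 to 558.1 CPM in prolactin and 471.0 to 532.0 CPM in control, also without overlap; all 17 had changes above 0, and edgeR called 1 higher and DESeq2 5. The 8 alpha-cell markers summed to 35140 to 36503 CPM in prolactin and 23477 to 37524 CPM in control, with 7 of 8 changes above 0, 1 called higher by edgeR and 4 by DESeq2. The 14 beta-cell markers, insulin genes among them, summed to 120543 to 126029 CPM in prolactin and 118605 to 145088 CPM in control, and 0 passed the edgeR test (unadjusted p under 0.05 in 1 that was higher and 2 that were lower; DESeq2 called 1 higher, limma-voom 0). The part of these differences in the mitochondrial results was not tested. Prolactin replicates 2 and 3 were closer than any of the other 14 pairs of libraries, with an SD of the log2 ratio between them of 0.0568, against 0.163 to 0.264. Their counts differed by more than counting noise (chi-square of 6.52 per degree of freedom, against 76.2 to 220 in the other pairs). That cannot tell separate samples from 2 libraries of 1 sample. Both were kept, and if they are 1 sample, the p-values rest on fewer samples than counted.

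Of the 37 genes, 18 had counts and passed the filter on low counts: the 13 protein genes, both rRNA genes and 3 tRNA genes. The other 19 had a count of 0 in every library. In edgeR's quasi-likelihood test, adjusted over all 23924 genes tested, 1 of the 18 fell in prolactin, mt-Co2, and 0 rose (0 at an unadjusted p under 0.05, 0 by DESeq2, 0 by limma-voom). Over all genes tested, 0.104% were called lower and 0.652% higher, and 1 gene is too few to be read as a share. The change was below 0 in 16 of the 18, among them all 13 protein genes, where 49.9% of all genes tested had a change below 0. Lower at an unadjusted p under 0.05 were 8 of the 18, against 6.68% of all genes tested. The median log2 change of the 18 was -0.21, against 0.0004 over all genes tested. These genes are cut from shared transcripts, so their changes are not independent of each other. DESeq2 called 4 of the 18 lower, against 1.6% of all genes it tested, and limma-voom called mt-Co2 (0.0878% of all genes tested were called lower).

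**Figure D2:**
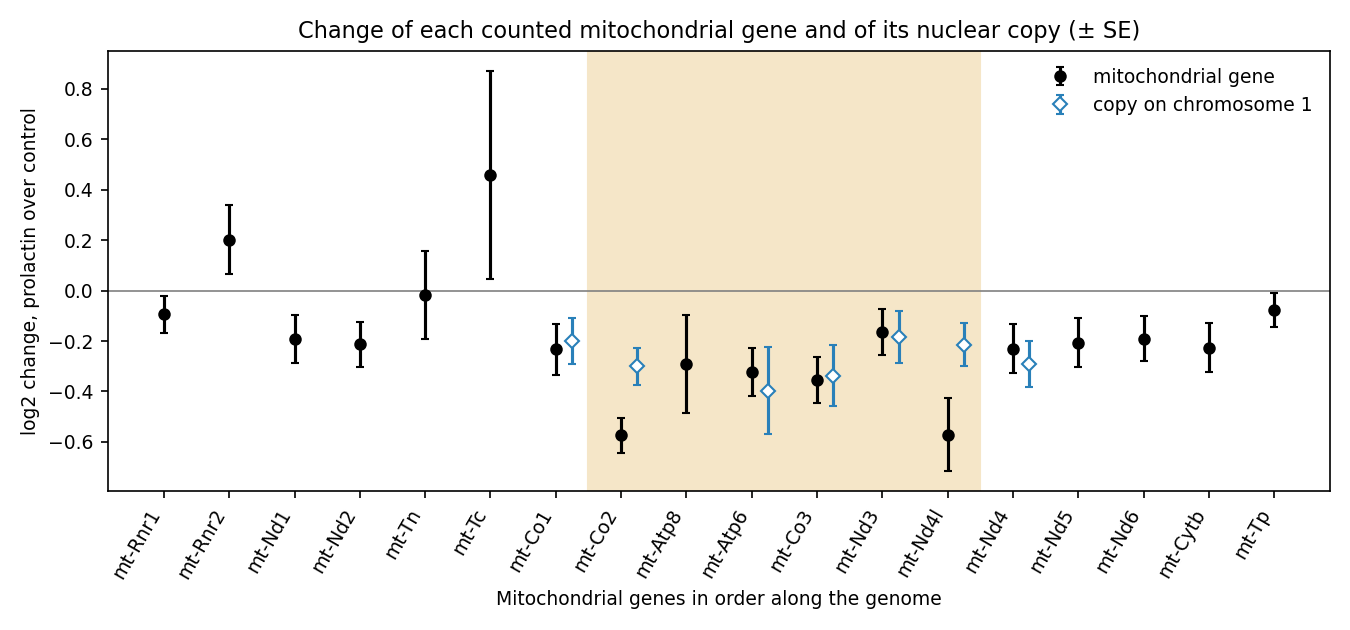
Log2 change of prolactin over control (y axis) with its SE for the 18 counted genes in genome order (x axis); filled circles are mitochondrial genes, open diamonds their copies on chromosome 1, and the shaded genes lie wholly inside the copied stretch. The 13 protein genes lie between -0.57 and -0.16, and mt-Co2 and mt-Nd4l lie lowest, below their copies.

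Genes of cytochrome c oxidase (complex IV), which passes electrons to oxygen, held the 1 called change, in mt-Co2. As given above, 99.5% of its windows of 100 bases occur in another annotated transcript, so its counts do not show from which place the RNA came. mt-Co2 (chromosome M, 7013 to 7696) had 93.9, 91.1 and 106.9 CPM in prolactin replicates 1, 2 and 3, against 149.2, 142.3 and 143.0 CPM in control replicates 1, 2 and 3. Every prolactin library was below every control library. The means were 97.3 ± 8.4 CPM in prolactin and 144.8 ± 3.8 CPM in control (SD, n = 3 each), a decrease of 32.8% (log2 change -0.57, SE 0.068, edgeR adjusted p = 0.00818). The call was lost without prolactin replicate 2 (log2 change -0.53, adjusted p = 0.0687), and held without each other library (adjusted p from 0.0111 to 0.0376). With prolactin replicates 2 and 3 summed into 1 sample the adjusted p was 0.0244. In the authors' deposited table its log2 fold change was -0.57 (adjusted p = 1.99e-10). DESeq2 run here on the deposited counts gave the same rounded adjusted p, so the deposited value is not separate evidence.

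mt-Co3, which encodes subunit III, had 71.3, 75.7 and 79.4 CPM in prolactin, against 111.4, 88.7 and 89.2 CPM in control. The groups did not overlap, which also holds for 10.4% of all genes tested in this direction, and control replicate 1 was highest. Its log2 change of -0.35 (SE 0.091) did not pass edgeR's test (adjusted p = 0.132). mt-Co1, the catalytic subunit and the gene with the highest level per length, had 7829, 7558 and 8212 CPM in prolactin, against 9590, 10061 and 8090 CPM in control. Here control replicate 3 lay inside the prolactin range, and the log2 change was -0.23 (SE 0.10, edgeR adjusted p = 0.340).

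The pair of ATP synthase (complex V) genes, which encode membrane subunits of the enzyme that makes ATP from the proton gradient, overlap each other. mt-Atp6, part of the proton channel, had 52.8, 51.1 and 63.00 CPM in prolactin, against 68.6, 77.0 and 63.04 CPM in control. The groups were separated by the difference between prolactin replicate 3 and control replicate 3 alone, which were almost equal. Its log2 change was -0.32 (SE 0.096, edgeR adjusted p = 0.175). mt-Atp8 was counted at 6.92 to 12.5 CPM in prolactin and 9.60 to 12.3 CPM in control, with overlapping groups and a log2 change of -0.29 (SE 0.19, adjusted p = 0.544). The change was -0.12 without prolactin replicate 1 and -0.56 without prolactin replicate 2.

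Complex I, which takes electrons from NADH, has 7 of the protein genes, and 0 of them passed edgeR's test (unadjusted p under 0.05 in 3, all lower; DESeq2 called 1 lower, limma-voom 0). mt-Nd4l, a small membrane subunit, had 10.4, 11.5 and 10.6 CPM in prolactin, against 17.3, 18.9 and 12.0 CPM in control. The groups did not overlap, and control replicate 3 was closest to the prolactin libraries. Its log2 change of -0.57 was as large as that of mt-Co2 but had a larger error (SE 0.14, edgeR adjusted p = 0.127). Without control replicate 3 it was called lower (log2 change -0.74, adjusted p = 0.00582), as were mt-Nd2 and mt-Nd4 (log2 changes -0.30 and -0.33, adjusted p = 0.0457 and 0.0454).

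The other 6 complex I genes changed by -0.16 to -0.23 on the log2 scale with all libraries. mt-Nd1, at the membrane end of the quinone site, had 3157, 3227 and 3314 CPM in prolactin, against 3763, 4091 and 3227 CPM in control (log2 change -0.19, edgeR adjusted p = 0.403). mt-Nd5, one of the proton-pumping subunits, had 3455, 3483 and 3702 CPM in prolactin, against 4242, 4463 and 3568 CPM in control (log2 change -0.21, edgeR adjusted p = 0.375). In both genes control replicates 1 and 2 lay above all prolactin libraries and control replicate 3 lay among them.

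The antiporter-like subunits mt-Nd2 and mt-Nd4 had log2 changes of -0.21 and -0.23 (edgeR adjusted p = 0.321 and 0.319). mt-Nd3, a small subunit, stood at 9.20 to 9.73 CPM in prolactin and 9.71 to 12.0 CPM in control (log2 change -0.16, adjusted p = 0.450). The groups overlapped in mt-Nd2, mt-Nd3 and mt-Nd4. mt-Nd6, alone among the protein genes on the minus strand, had 862.0, 837.8 and 882.1 CPM in prolactin, against 995.3, 1089 and 861.7 CPM in control (log2 change -0.19, adjusted p = 0.370). Here too control replicate 3 lay among the prolactin libraries. Counting without strand adds any plus-strand RNA that runs across mt-Nd6, so RNA of either strand cannot be told apart here.

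mt-Cytb, the one mitochondrial gene of complex III, encodes its subunit cytochrome b. The complex as a whole hands electrons from ubiquinol to cytochrome c. mt-Cytb had 4163, 4293 and 4583 CPM in prolactin, against 5067, 5655 and 4531 CPM in control. Control replicate 3 lay below the highest prolactin library. The log2 change was -0.23 (SE 0.098, edgeR adjusted p = 0.335).

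The rRNA genes encode the RNAs of the small (mt-Rnr1) and large (mt-Rnr2) mitochondrial ribosomal subunit, whose tails are known to be shorter than those of the mRNAs, so selection for poly(A) need not capture them alike. mt-Rnr2 was the 1 non-tRNA gene with a change above 0. It had 1329, 1134 and 1307 CPM in prolactin, against 867.2, 1304 and 1108 CPM in control, and the groups overlapped, with control replicate 1 lowest (log2 change 0.20, SE 0.14, edgeR adjusted p = 0.552). The change was 0.060 without control replicate 1 and 0.35 without control replicate 2. mt-Rnr1 had 278.6, 233.6 and 255.2 CPM in prolactin, against 277.0, 282.1 and 260.1 CPM in control. Its groups overlapped too (log2 change -0.09, SE 0.074, edgeR adjusted p = 0.617). The ratio of mt-Rnr2 to mt-Rnr1 counts was 4.77, 4.86 and 5.12 in prolactin, against 3.13, 4.62 and 4.26 in control, with every prolactin library above every control library.

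Per length, the genes kept nearly the same order of level in all 6 libraries. Levels here are CPM per kilobase, given as the mean in prolactin and then in control. mt-Co1 was highest (5091 and 5985), followed by mt-Cytb (3799 and 4445), mt-Nd1 (3378 and 3860) and mt-Nd5 (1945 and 2243). Each of these 4 was above the next in 6 of 6 libraries. mt-Nd2 (1656 and 1919) and mt-Nd6 (1658 and 1892) were not separated, with mt-Nd2 above in 3 of 6 libraries. They were followed by mt-Nd4 (1165 and 1367), mt-Rnr2 (795 and 691) and mt-Rnr1 (268 and 286).

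The 6 protein genes wholly inside the copied stretch stood below all 7 others. They ranged from 27.0 to 142 CPM per kilobase in prolactin and from 30.3 to 212 in control, while the 7 others ranged from 1165 to 5091 in prolactin and from 1367 to 5985 in control. Among the 6, mt-Co2 was highest, then mt-Co3, mt-Atp6, mt-Atp8, mt-Nd4l and mt-Nd3. mt-Atp8 was above mt-Nd4l in 4 of 6 libraries, and each other gene above the next in 6 of 6. The part of the shared sequence in their low counts was not tested.

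**Figure D3:**
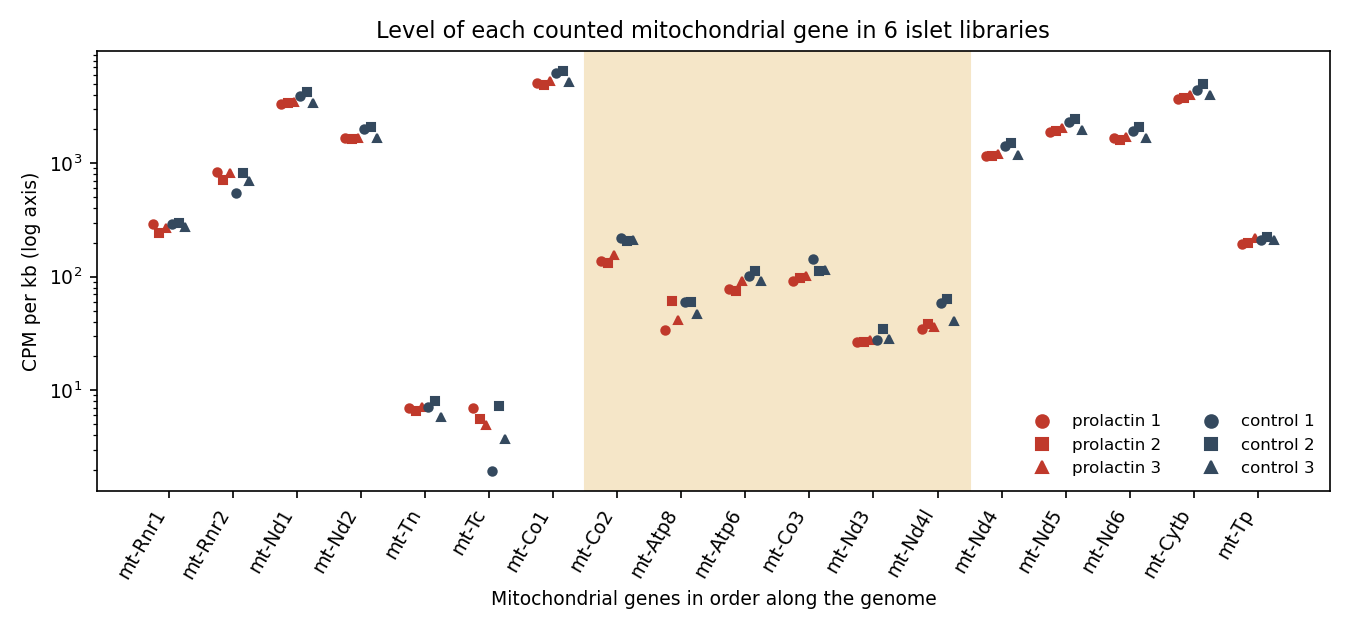
CPM per kilobase (y axis, log scale) of the 18 counted genes in genome order (x axis), 1 point per library with the prolactin libraries left of the control libraries; shading marks genes wholly inside the copied stretch. The shaded genes lie between 26.4 and 218, and the 7 other protein genes at 1149 or more.

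The log2 changes of the 7 protein genes not wholly inside the copied stretch ranged from -0.23 to -0.19, and in 0 of 7 the groups were separated. Of these, mt-Co1 and mt-Nd4 lie partly inside it. In the 6 wholly inside, log2 changes ranged from -0.57 to -0.16, and every prolactin library was below every control library in 4 of 6, mt-Co2, mt-Atp6, mt-Co3 and mt-Nd4l, as in 10.4% of all genes tested. In mt-Atp6 that rests on 63.00 CPM in prolactin replicate 3 and 63.04 CPM in control replicate 3. These 4 are the ones that DESeq2 called. The authors' deposited table gave log2 fold changes of -0.57 for mt-Nd4l (adjusted p = 0.000938), -0.35 for mt-Co3 (adjusted p = 0.00794) and -0.32 for mt-Atp6 (adjusted p = 0.0295). These deposited values nearly equal those of DESeq2 run here on the same counts, so they are not separate evidence. The difference in change between these 6 genes and the 7 others was not tested.

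The copies of the 5 genes mt-Co2, mt-Atp6, mt-Co3, mt-Nd3 and mt-Nd4l had counts of the same order as those genes. The counts of mt-Co1 averaged 176 times those of its partial copy in prolactin and 179 times in control, and those of mt-Nd4 33.5 times in prolactin and 32.2 times in control. Gm28661, the copy of mt-Co2, had 89.0, 86.4 and 90.9 CPM in prolactin, against 110.6, 119.2 and 98.2 CPM in control. It was lower in every prolactin library, as mt-Co2 was, but its log2 change of -0.30 was smaller and did not pass edgeR's test (SE 0.073, adjusted p = 0.109). The ratio of mt-Co2 to Gm28661 was 1.06, 1.05 and 1.18 in prolactin, against 1.35, 1.19 and 1.46 in control, again without overlap. Since the sequences are identical, these counts do not show from which place the RNA came.

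Adding the reads of Gm28661 to mt-Co2 gave 186.1 ± 10.5 CPM in prolactin and 254.2 ± 11.3 CPM in control (SD, n = 3 each), with a log2 change of -0.45 that still passed (SE 0.064, edgeR adjusted p = 0.0198). This sum was chosen after the data were seen. It holds only reads that were counted at either place. How reads that fit both places were handled is not known, so the sum need not hold all of them. Treated the same way, mt-Co3 had a log2 change of -0.35 (edgeR adjusted p = 0.0750), mt-Nd4l -0.39 (adjusted p = 0.153) and mt-Atp6 -0.37 (adjusted p = 0.283).

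Gm10222, the copy of mt-Nd4l, had 11.7, 12.3 and 12.0 CPM in prolactin, against 13.8, 15.6 and 12.5 CPM in control (log2 change -0.22, edgeR adjusted p = 0.293). Gm28437, the copy of mt-Co3, had 70.4, 73.1 and 72.0 CPM in prolactin, against 80.4, 112.5 and 79.5 CPM in control (log2 change -0.34, edgeR adjusted p = 0.254). In both copies every prolactin library was below every control library, as in 10.4% of all genes tested. Of the 6 copies other than Gm10222, 3 were separated in this way. The other 4 copies had log2 changes of -0.40 (Gm10925), -0.29 (Gm28439), -0.20 (Gm29216) and -0.18 (Gm28438). None of the 7 copies passed edgeR's test. DESeq2 called Gm28661 and Gm28439 lower (adjusted p = 0.00999 and 0.0499), where it called 1.6% of all genes it tested lower.

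**Figure D4:**
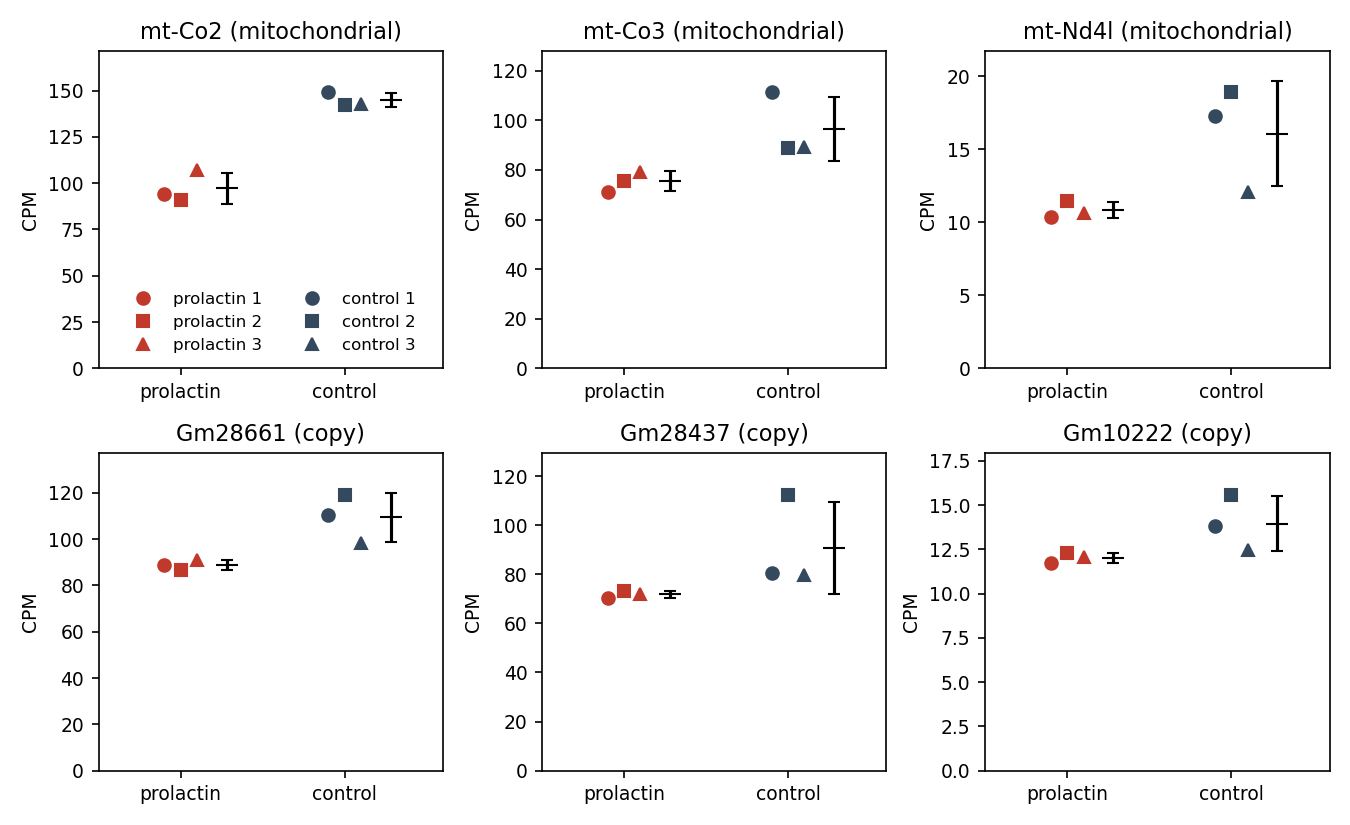
CPM (y axes, from 0) of mt-Co2, mt-Co3 and mt-Nd4l in the top row and of their identical copies on chromosome 1 in the bottom row; points are libraries, bars mean ± SD of 3. mt-Co2 lies at 91.1 to 106.9 in prolactin and 142.3 to 149.2 in control, and its copy at 86.4 to 90.9 in prolactin and 98.2 to 119.2 in control.

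Within the mitochondrial counts, the scaling between libraries plays no part. Of the 18 counted genes, 3 had a lower and 2 a higher share in every prolactin library than in every control library. In CPM, 10.4% of all genes tested were separated lower and 11.3% higher, and shares within 1 pool depend on each other. These numbers are therefore not read as a result about the pool. Reads that fit a nuclear copy as well can still move the shares of the copied genes. rRNA made up 6.53%, 5.63% and 6.02% of mitochondrial counts in prolactin, against 3.92%, 5.02% and 5.40% in control. mt-Rnr2 alone made up 5.40%, 4.67% and 5.04% in prolactin, against 2.97%, 4.13% and 4.37% in control. The prolactin libraries lay above the control libraries in both, and control replicate 1, the most deeply sequenced library, was lowest.

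mt-Co2 made up 0.381%, 0.375% and 0.412% of mitochondrial counts in prolactin, against 0.511%, 0.451% and 0.564% in control. mt-Co1 made up 31.8%, 31.1% and 31.7% in prolactin, against 32.9%, 31.9% and 31.9% in control. mt-Nd4l made up 0.0422%, 0.0471% and 0.0410% in prolactin, against 0.0591%, 0.0599% and 0.0475% in control. In these 3 the prolactin libraries lay below the control libraries, in mt-Co1 by little. Shares sum to a whole, so a larger rRNA share leaves less for the rest. Complex I genes held 44.0% ± 0.5 in prolactin and 44.1% ± 0.5 in control, and complex III 17.4% ± 0.4 in prolactin and 17.7% ± 0.3 in control, with overlapping groups. Complex IV genes held 32.2% ± 0.4 in prolactin and 33.1% ± 0.6 in control, and complex V genes 0.260% ± 0.017 in prolactin and 0.282% ± 0.005 in control. In both, every prolactin library lay below every control library, but by little. For complex IV, prolactin replicate 1 had 32.46% and control replicate 2 had 32.60%. For complex V, prolactin replicate 3 had 0.2758% and control replicate 1 had 0.2772%. The share of mt-Tn was higher in every prolactin library, at 0.0020% in prolactin and 0.0017% in control.

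Of the 22 tRNA genes, which encode the adapters for mitochondrial translation and are 59 to 75 nucleotides long, 19 were at 0 in all 6 libraries. A count of 0 allows up to 0.00566 to 0.0130 CPM, depending on the library (3 counts, for counting error only). All 14 on the plus strand and 5 of 8 on the minus strand were among them, and each of the 19 lies within 5 nucleotides of its annotated neighbours, apart from mt-Tf, which also borders the unannotated end of the circular chromosome. Of the 3 with counts, mt-Tn and mt-Tc lie on either side of a gap of 32 nucleotides, and mt-Tp is the last annotated gene. The counting command has no option for reads that overlap several genes, and the libraries were selected for poly(A). The part of either in the zeros was not tested. Their sequences are printed 5' to 3' from the minus strand with the anticodon in capitals (chrM:5089-5159, chrM:5192-5257 and chrM:15356-15422).
mt-Tn: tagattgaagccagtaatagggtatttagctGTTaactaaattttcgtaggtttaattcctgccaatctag
mt-Tc: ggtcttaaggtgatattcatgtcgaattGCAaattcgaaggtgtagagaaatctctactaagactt
mt-Tp: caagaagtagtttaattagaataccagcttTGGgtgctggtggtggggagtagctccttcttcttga

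mt-Tp, the proline tRNA, had 3041, 3092 and 3869 counts in prolactin, against 7636, 4101 and 3746 counts in control, where the libraries differ in depth. Scaled, these were 13.1, 13.3 and 14.6 CPM in prolactin, against 14.2, 15.1 and 14.0 CPM in control, with overlapping groups (log2 change -0.08, SE 0.067, edgeR adjusted p = 0.654). mt-Tn, for asparagine, was counted 108 to 135 times in prolactin and 111 to 270 times in control (log2 change -0.02, adjusted p = 0.977). mt-Tc, for cysteine, was counted 85 to 106 times in prolactin and 66 to 130 times in control (log2 change 0.46, SE 0.41, adjusted p = 0.670), with a change of 0.075 without control replicate 1 and 1.07 without control replicate 2. Reads of the plus strand that cross these minus-strand genes would count here too.

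Nuclear genes that act on the mitochondrial genome showed no called change. In 6 lists with 215 genes (transcription and replication, RNA processing and decay, biogenesis factors, translation and tRNA synthetases, the mitochondrial ribosome, and assembly factors), 212 were tested. Of these, 0 rose and 0 fell by edgeR, where 0.652% and 0.104% of all genes tested were called. At such low shares, 0 called among 212 genes says little. With unadjusted p-values under 0.05, the counts were 6 higher and 22 lower, against 7.78% and 6.68% of all genes tested. DESeq2 called 0 higher (4.1% of all genes it tested) and 2 lower (1.6% of all genes it tested), Mrps25 among them. limma-voom called 0. The median log2 change over the 6 lists was -0.05, and 155 of 212 changes were below 0, where 49.9% of all genes tested were. Without control replicate 3, 4 fell (Hsd17b10, Mrpl49 and Mrps25 among them) and 1 rose (Pprc1).

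Among the 22 transcription and replication genes the median log2 change was -0.06. The RNA polymerase Polrmt averaged 22.4 ± 0.8 CPM in prolactin and 22.6 ± 1.7 CPM in control (log2 change -0.01, edgeR adjusted p = 0.957). Tfam, which packages mitochondrial DNA and opens its promoters, averaged 38.4 ± 0.3 CPM in prolactin and 40.2 ± 3.0 CPM in control (log2 change -0.06, edgeR adjusted p = 0.688). The initiation factor Tfb2m had a log2 change of -0.02 (edgeR adjusted p = 0.941). The smallest p-values of the list belonged to Mterf4, which acts in ribosome assembly, and Polg2, a subunit of the DNA polymerase (log2 changes -0.22 and -0.24, edgeR adjusted p = 0.205 and 0.261).

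The 32 RNA processing and decay genes had a median of -0.03. Lrpprc and Slirp, which form the complex that stabilises mitochondrial mRNAs, had log2 changes of -0.06 and -0.02 (edgeR adjusted p = 0.609 and 0.935). Hsd17b10, a subunit of mitochondrial RNase P, had -0.22 (adjusted p = 0.282), the ribosome-bound RNA-binding protein gene Ptcd3 -0.15 (adjusted p = 0.254), and the rRNA methyltransferase gene Ftsj2 -0.24 (adjusted p = 0.271). Of the 15 biogenesis factors (median 0.02), the coactivator Ppargc1a had a log2 change of -0.14 (edgeR adjusted p = 0.576). Its relative Pprc1 had 0.22 (adjusted p = 0.180) and the transcription factor Nrf1 0.21 (adjusted p = 0.186).

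Translation factors and tRNA synthetases (29 tested, median -0.06) included Ears2, which charges the tRNA for glutamate. It averaged 21.0 ± 0.5 CPM in prolactin and 18.4 ± 0.4 CPM in control (log2 change 0.19, SE 0.053, edgeR adjusted p = 0.152). The elongation factor gene Gfm1 had -0.15 (adjusted p = 0.261). Of the mitochondrial ribosome, 76 of 77 proteins were tested (median -0.05), with Mrps25 at -0.25, Mrps28 at 0.20 and Mrpl49 at -0.21 (edgeR adjusted p = 0.147, 0.163 and 0.173). Assembly factors (38 of 40 tested, median -0.07) included the complex I factor Ndufaf7 at -0.17 and the complex IV factors Cox19 at -0.19 and Cep89 at -0.15 (edgeR adjusted p = 0.184, 0.205 and 0.230).

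**Figure D5:**
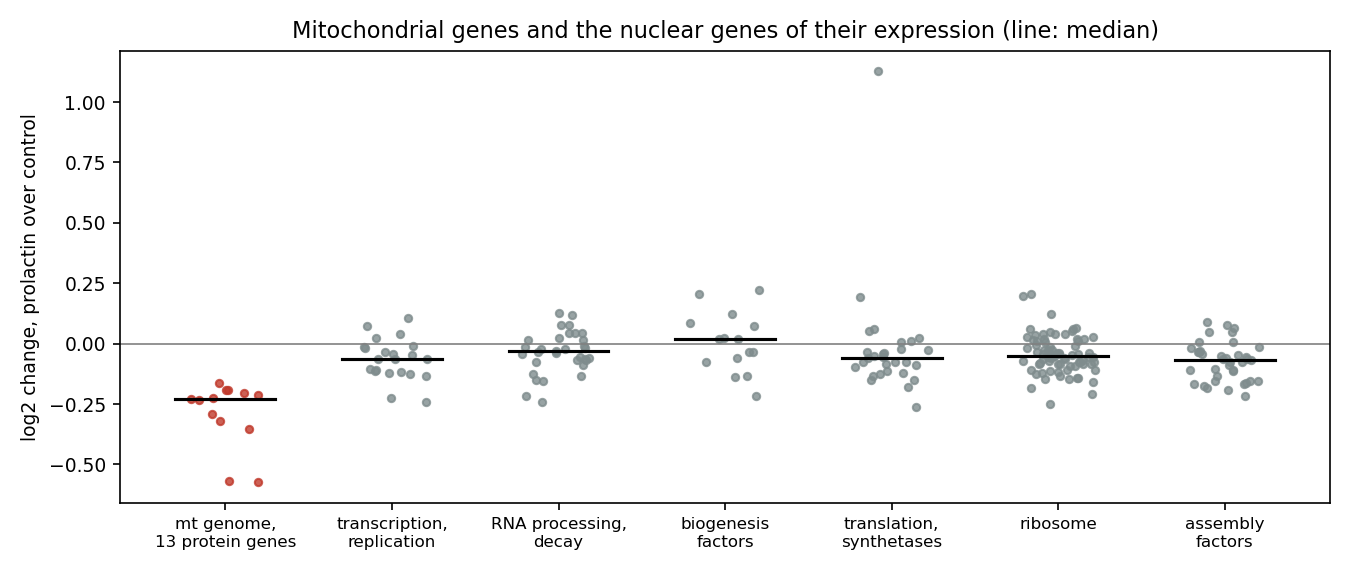
Log2 change of prolactin over control (y axis) for each tested gene of the mitochondrial genome's 13 protein genes and of 6 lists of nuclear genes that act on it (x axis); the black line is the list's median. Medians of the nuclear lists lie between -0.07 and 0.02, and the single point above 1 is Lars2.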

How the data were processed

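Polyadenylated RNA of mouse islets was sequenced in 3 prolactin and 3 control libraries with a NEBNext Ultra II kit, per the labels' protocols. The authors deposited raw counts per gene from featureCounts 2.0.3, with GENCODE models pooled by gene name, per the file headers. Per the submitters' processing notes, mm10, SAMtools 1.21, Subread 2.1.0 and DESeq2 were used; no source used here names the aligner. The recorded command sets neither strand nor pair counting, so reads of opposite strands are pooled and mates may be counted apart. Per the file headers, a second deposited table gives for each gene the mean signal over libraries, the log2 fold change and its error, a score (the test statistic), the p-value and its adjusted value.

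Prolactin was compared with control by the two-sided quasi-likelihood test of edgeR 4.0.16 (R 4.3.3), with TMM scaling and the condition as its only term. The package's filter on low counts (at least 10 in enough libraries, at least 15 in total) kept 23924 of 48397 genes. P-values were adjusted over all genes tested by Benjamini-Hochberg, with a threshold of 0.05. SEs come from the test statistic. Shares of counts were given without a test. Copies were found with BLAST 2.17.0 (at least 100 aligned bases) among GENCODE transcripts of the same assembly, from which all sequences were read. Alternatives were other scalings and filters, DESeq2 1.42.0, limma-voom (limma 3.58.1), a replicate block, leaving out each library, halved counts, the sum of prolactin replicates 2 and 3 as 1 sample, and adding the copies' reads, which was chosen once the data had been seen. The scripts were tested on simulated data. The members and lists were chosen with earlier results of these data known. Named were all protein and rRNA members, the 3 most abundant tRNAs, 7 well-known nuclear genes, and up to 3 genes per nuclear list with the smallest p-values, 1 of which is not reported here; Lars2 and Gm10222 were added after their values were seen. No column of per-sample values was left out.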

Additional observations from a re-analysis of the deposited data

How the results depend on the processing

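The number of mitochondrial genes called lower in edgeR's test was 1 with all libraries. It was 4 with no filter and 4 with DESeq2 (mt-Co2, mt-Atp6, mt-Co3 and mt-Nd4l in each), and 2 with the replicate number as a block (mt-Co2 and mt-Nd4l). It ranged from 0 to 4 when 1 library was left out, 0 without prolactin replicate 2 and 4 without control replicate 3 (mt-Nd2, mt-Co2, mt-Nd4l and mt-Nd4). The number called higher was 0 in each of the 19 alternatives. Same-numbered libraries deviated together with correlations of 0.54, 0.32 and 0.087. Prolactin replicate 3 correlated best with control replicate 2 (0.35), as prolactin replicate 2 did (0.32). Since prolactin replicates 2 and 3 were nearly alike, these values cannot tell whether the numbers pair the samples. The main test used no pairing. Of the nuclear genes, 2 were lower by DESeq2, and leaving out 1 library gave 0 to 4 lower and 0 to 1 higher. The mitochondrial share of the counts differed by -0.500 to -0.257 percentage points over the alternatives, the smallest without control replicate 2. In CPM, 10.4% of all genes tested lay lower and 11.3% higher in every prolactin library. The number of the 18 counted genes whose share of mitochondrial counts separated the groups was 3 lower and 2 higher. Without 1 library it ranged from 3 to 6 lower (6 without control replicate 1) and from 2 to 4 higher (4 without control replicate 3), and with the rRNA genes left out of the pool it was 2 lower and 1 higher. Without 1 library, the sign of the log2 change turned for mt-Tn (range -0.13 to 0.091), Polrmt (-0.057 to 0.050), Tfb2m (-0.082 to 0.058) and Slirp (-0.048 to 0.0084), whose changes were near 0 with all libraries. The causes were not tested. The 13 protein genes kept a change below 0 in all alternatives. Scaling moved the median of all genes by at most 0.011 on the log2 scale. Halving the counts left the numbers called as they were. With 3 libraries per group, changes near 0.2 in the mitochondrial genes were not called.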

Other observations

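Lars2, which encodes the mitochondrial leucyl-tRNA synthetase, was the nuclear gene of the 6 lists with the largest log2 change (1.13, SE 0.67, edgeR adjusted p = 0.485). It had 1386, 197.3 and 204.8 CPM in prolactin replicates 1, 2 and 3, against 315.0, 304.7 and 198.5 CPM in control replicates 1, 2 and 3. Prolactin replicate 1 alone was high, and the groups overlapped.

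The reads of the 7 copies on chromosome 1 amounted to 1.43%, 1.42% and 1.44% of the mitochondrial counts in prolactin, against 1.52%, 1.62% and 1.48% in control. Every prolactin library was below every control library. The older copies on chromosome 2, Gm13340 of mt-Co1 (97.6% identical) and Gm13341 of mt-Co2, averaged 5069 and 1416 counts per library over all 6 libraries.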
